A study of Mus musculus with 6 samples.

Results

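The genes described here are those of 3 families listed in a deposited RNA table of mouse brain endothelial cells: the ADAMTS and MMP proteases, which cut the extracellular matrix, and their TIMP inhibitors. Members are all genes whose symbol belongs to 1 of these families, and came to 46 of 23827 listed genes: 19 ADAMTS, 23 MMP and 4 TIMP genes. The embryos were at E14.5 (embryonic day), of the strain C57BL/6 x 129/Sv, and the mothers of both groups had received tamoxifen at E12.5. The control group was wild type, labelled Wt. The other carried R26 Axin1 IresLacZ overexpression, a transgene at the Rosa26 locus that raises Axin1, a scaffold of the complex that destroys beta-catenin. Each group had 3 libraries, labelled as biological replicates. The RNA was bound to tagged ribosomes and pulled down by TRAP (translating ribosome affinity purification). The labels name neither the driver of the ribosome tag nor that of the transgene, and do not say whether embryos were pooled.

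ADAMTS proteases are secreted enzymes with thrombospondin repeats that bind the matrix. Several cleave large proteoglycans such as versican, and others trim procollagens. MMPs (matrix metalloproteinases) are made as inactive precursors, secreted or anchored to the membrane, and together cleave most matrix proteins. TIMPs are small secreted proteins that block the active site of MMPs, and TIMP3 also blocks several ADAMTS enzymes. Growing vessels use these enzymes to remodel the basement membrane around them, and in brain vessels MMPs are known for opening the blood-brain barrier in disease.

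Levels are given in RPKM (reads scaled to transcript length and to the size of the library), so that levels of different genes can be set side by side per length. Recovered reads came to between 21077153 and 37039875 in the Axin1 libraries and between 53523988 and 62507580 in the wild-type libraries. Axin1 itself read 13.6, 14.4 and 15.1 RPKM in wild type and 37.8, 38.1 and 37.4 RPKM with the transgene. All 10 endothelial markers were detected, with Cldn5 the highest (mean 1005 RPKM). Their summed level was 3391 to 3522 RPKM in wild type and 2838 to 3057 with Axin1, without overlap (1 higher and 3 lower of 10). The part of Cldn5 in this difference was not tested, nor was the part of the difference in the changes of the members. Markers of other cells were present too, and those of neural progenitors and erythroid cells separated the groups. The summed level of 9 neural progenitor markers was 1722 to 1884 RPKM in wild type and 2216 to 2316 with Axin1. Most of this sum came from Vim (mean 1318 RPKM), and its part in the difference was not tested. Of these 9 genes, 6 were higher and 0 lower, with a median log2 fold change of 0.49. Among all tested genes 14.4% were higher and 8.37% lower, and the marker counts stand against these shares. The sum of 8 erythroid markers was 95.3 to 122 RPKM in wild type and 319 to 640 with Axin1. The other sums overlapped between the groups. That of 9 neuron markers was 441 to 555 and 519 to 543. The 10 pericyte and smooth muscle markers summed to 43.5 to 51.4 and 31.4 to 44.4 RPKM, and 11 meningeal fibroblast markers to 218 to 338 and 239 to 243. The 8 microglia and macrophage markers summed to 16.1 to 17.3 and 17.1 to 29.2. In these lists the erythroid genes Hbb-b1 and Hba-a1 were listed at 0 in every library. In RNA from mixed cells, fewer cells of a type and less RNA per cell cannot be told apart. The column names carry 1 tag for all wild-type and another for all Axin1 libraries. What the tags mean is not stated, and if they mark a batch, batch and genotype cannot be told apart.

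The MMP family had the most members at or near 0. A mean of at least 1 RPKM was reached by 13 of 19 ADAMTS, 10 of 23 MMP and 3 of 4 TIMP genes, 26 of 46 in all, and these were tested. Of the 20 genes below it, 8 lay between 0.2 and 1 RPKM. These were Adamts5, Adamts14, Adamts16, Adamts19, Adamts20, Mmp19, Mmp23 and Timp4. A further 5 genes (Adamts13, Mmp8, Mmp12, Mmp13 and Mmp21) had at most 6 reads over all libraries and no more than 0.0291 RPKM in any. The remaining 7 (Mmp1a, Mmp1b, Mmp3, Mmp7, Mmp10, Mmp20 and Mmp27) were listed at 0 in every library. A count of 0 allows up to 3 reads per library, which came to between 0.0148 and 0.134 RPKM for these genes, counting error only. Closest to the limit of 1 RPKM were Adamts17 (mean 1.03 RPKM) and Adamts6 (1.07) inside it and Adamts5 (0.808) outside.

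The 10 Mmp genes at or near 0 on chromosome 9 are neighbours: in order they are Mmp13, Mmp12, Mmp1b, Mmp3, Mmp1a, Mmp10, Mmp8, Mmp27, Mmp20 and Mmp7. This cluster holds the collagenase, stromelysin and matrilysin genes of the family, which are known for being induced by inflammation and injury. Their highest value in any library was 0.0284 RPKM, for Mmp8. The promoters of 3 of them are shown with those of Timp3 and Mmp25, the members with the lowest p-values, because the promoter windows of the cluster and of the members with at least 1 RPKM differ in composition. The sequences are from RefSeq on GRCm38.p6, run 5′ to 3′ on the strand of the gene, and cover 250 bases before to 50 after its start. Capitals mark the letters TGANTCA, searched on both strands, where N is any base. AP-1 (Fos and Jun dimers) binds a core of this form with C or G at N, so the search was wider than that core.
Mmp13 (chr9:7272264-7272563, plus strand): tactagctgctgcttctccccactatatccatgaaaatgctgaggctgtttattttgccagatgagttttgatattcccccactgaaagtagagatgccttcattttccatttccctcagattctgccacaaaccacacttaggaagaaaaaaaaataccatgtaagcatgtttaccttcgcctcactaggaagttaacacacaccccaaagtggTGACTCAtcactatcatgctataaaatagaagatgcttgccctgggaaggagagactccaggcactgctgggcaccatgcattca
Mmp3 (chr9:7445572-7445871, plus strand): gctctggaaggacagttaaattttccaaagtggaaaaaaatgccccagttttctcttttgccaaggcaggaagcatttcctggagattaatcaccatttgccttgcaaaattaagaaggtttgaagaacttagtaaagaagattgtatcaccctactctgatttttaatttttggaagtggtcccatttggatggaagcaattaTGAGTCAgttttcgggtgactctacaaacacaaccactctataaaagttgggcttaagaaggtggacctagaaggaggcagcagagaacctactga
Mmp10 (chr9:7502092-7502391, plus strand): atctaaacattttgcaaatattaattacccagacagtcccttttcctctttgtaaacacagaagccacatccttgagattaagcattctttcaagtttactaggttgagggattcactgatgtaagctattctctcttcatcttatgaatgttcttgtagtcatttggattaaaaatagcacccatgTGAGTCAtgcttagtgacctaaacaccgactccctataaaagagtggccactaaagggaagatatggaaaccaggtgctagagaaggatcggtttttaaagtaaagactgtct
Timp3 (chr10:86300162-86300461, plus strand): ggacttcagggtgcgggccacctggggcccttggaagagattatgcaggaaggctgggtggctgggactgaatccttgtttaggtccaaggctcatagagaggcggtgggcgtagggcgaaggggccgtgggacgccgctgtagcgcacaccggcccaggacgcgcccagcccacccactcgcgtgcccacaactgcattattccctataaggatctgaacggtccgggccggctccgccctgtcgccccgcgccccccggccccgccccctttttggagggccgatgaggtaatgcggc
Mmp25 (chr17:23645220-23645519, minus strand): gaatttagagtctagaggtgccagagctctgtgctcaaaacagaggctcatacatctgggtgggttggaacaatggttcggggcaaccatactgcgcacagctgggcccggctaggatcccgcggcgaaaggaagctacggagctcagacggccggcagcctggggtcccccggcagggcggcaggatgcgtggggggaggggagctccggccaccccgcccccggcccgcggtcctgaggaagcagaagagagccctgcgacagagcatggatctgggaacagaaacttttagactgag

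The AP-1 letters begin at -35 in Mmp13, -46 in Mmp3 and -63 in Mmp10, counted from the annotated start. Promoter windows were found for 32 of the 46 members, 35 windows in all. Only 16 of the 26 tested members had one. Among the called members, Adamts8, Adamts10, Adamts15, Mmp2 and Mmp9 had none and were not searched. The AP-1 letters lay in 8 of the 12 windows of the chromosome 9 cluster, those of Mmp1a, Mmp1b, Mmp3, Mmp7, Mmp10, Mmp12, Mmp13 and Mmp20. The match in Mmp20 has A at N and so is not the AP-1 core, while the others have C or G. None of the 16 windows of members with at least 1 RPKM and none of the 7 other windows held them. Among all 32851 promoter windows of this length, 7.81% did, again with any base at N. The GC content of the cluster windows was 37.7% to 52.0% (median 41.7%), against 55.0% to 80.0% (median 66.0%) for members with at least 1 RPKM. The other members under 1 RPKM had 53.3% to 77.3% (median 61%). Among them Adamts13 (54.7%) and Mmp21 (54.3%) were also at a few reads. A low GC content thus went with the cluster and not with every member at or near 0. The letters ATCAAAG, the core that the Wnt-responsive TCF and LEF factors bind, were searched on both strands. They were found in both windows of Mmp7, which overlap and hold the same single match, and in no other member window, against 3.73% of all windows. The match shares no base with the AP-1 letters there. A match is a description of the letters and not of a bound site.

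**Figure D1:**
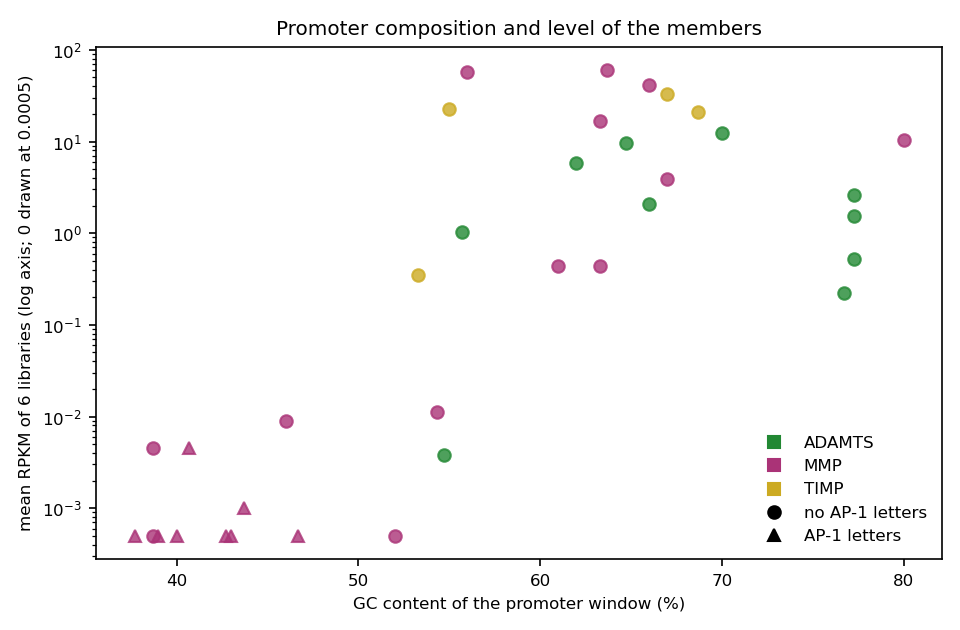
Mean RPKM over 6 libraries (log axis, values of 0 drawn at 0.0005) against the GC content of the promoter window in percent, 1 point for each of 35 windows, coloured by family. Triangles, windows with the AP-1 letters, all belong to MMP genes of the chromosome 9 cluster at or near 0 RPKM, at 37.7% to 46.7% GC. Members with at least 1 RPKM start at 55.0%, and the other members under 1 RPKM at 53.3%.

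Of the 26 members tested, 11 changed with Axin1 overexpression at a limma adjusted p under 0.05, where 22.8% of all 12493 tested genes did. Of these, 3 were higher (Mmp2, Timp3 and Adamts1), against 14.4% of all tested genes. The other 8 were lower (Adamts8, Mmp25, Adamts12, Adamts2, Adamts15, Adamts10, Mmp9 and Adamts17), against 8.37%. That is 42.3% of the members changed, 11.5% higher and 30.8% lower. Adamts17 and Mmp9 reached the filter of 1 RPKM only through their wild-type values, so their place in these counts depends on the filter. Their means were 1.24 and 1.34 RPKM in wild type and 0.828 and 0.873 RPKM with Axin1. With no filter Adamts17 still passed (limma adjusted p = 0.0171) and Mmp9 did not (0.0637). By family, 1 ADAMTS gene was higher and 6 were lower, 1 MMP was higher and 2 were lower, and 1 TIMP was higher. The median log2 fold change was -0.17 for the ADAMTS, -0.09 for the MMP and 0.10 for the TIMP genes, beside 0.04 for all tested genes. The groups did not overlap for 15 of 26 members (57.7%), among them all 11 called, and for 43.9% of all tested genes. Since fold changes were taken from log2(RPKM + 1), those of genes at a few RPKM or less are smaller than the ratio of their RPKM values.

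**Figure D2:**
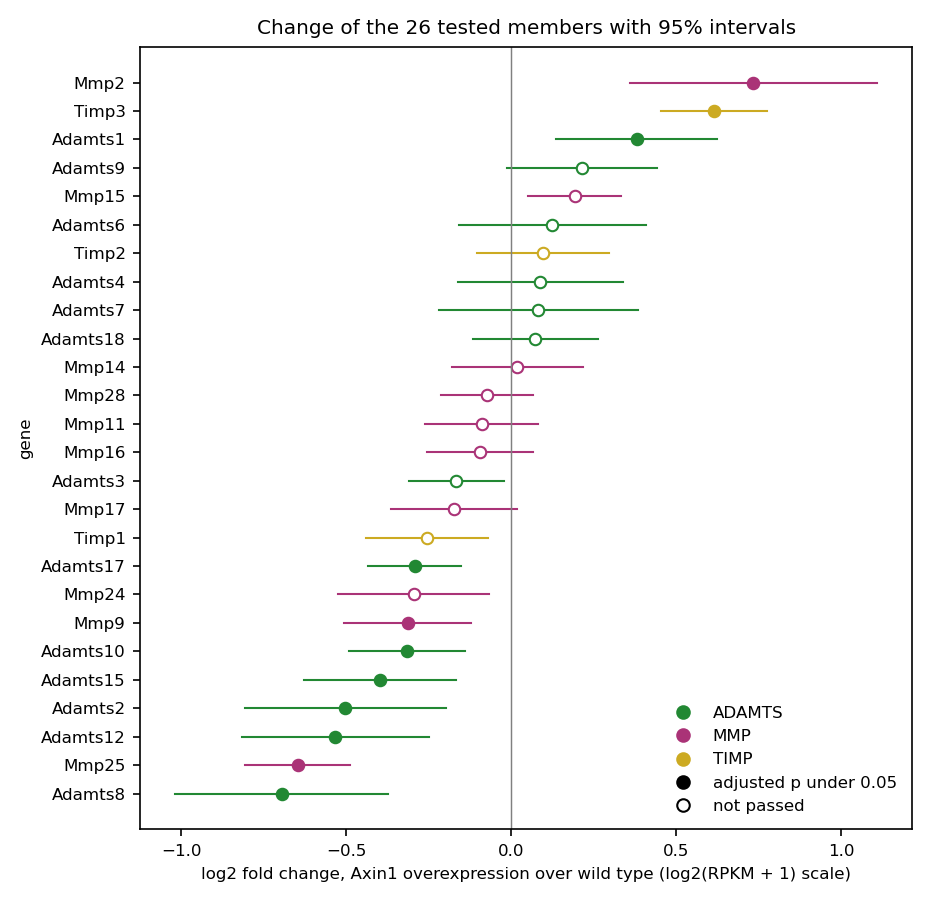
Log2 fold change of each of the 26 tested members (Axin1 overexpression over wild type, log2(RPKM + 1) scale) with its 95% interval from limma, coloured by family and filled where the adjusted p was under 0.05. Mmp2 and Timp3 lie farthest to the right and Adamts8 and Mmp25 farthest to the left, while 15 members did not pass.

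Among the inhibitors, Timp3 rose and the other members did not pass. Timp3, which stays bound to the matrix, read 27.1, 23.6 and 26.9 RPKM in wild type and 41.5, 39.1 and 39.8 RPKM with Axin1. All Axin1 libraries stood well above all wild-type ones, and the rise from 25.9 ± 1.96 to 40.1 ± 1.25 RPKM (SD, n = 3) was 1.55-fold (log2 fold change 0.62, SE 0.07, limma adjusted p = 0.00113). Timp1, a freely secreted inhibitor, read 23.5, 24.8 and 24.8 RPKM in wild type and 19.4, 18.8 and 22.9 RPKM with Axin1. These groups did not overlap either, but the difference did not pass (log2 fold change -0.26, limma adjusted p = 0.053). It did pass, in the same direction, under 8 of 17 other settings, among them without Axin1 replicate 3, with adjusted p over all 17 between 0.0188 and 0.182. Timp2, which also helps MMP14 to activate pro-MMP2 at the cell surface, read 22.9, 19.5 and 18.2 RPKM in wild type and 20.5, 22.1 and 22.2 RPKM with Axin1. Its groups overlapped and it did not pass (log2 fold change 0.10, 95% interval -0.10 to 0.30). Timp4 lay under the limit for testing, at 0.512, 0.371 and 0.467 RPKM in wild type and 0.175, 0.305 and 0.268 RPKM with Axin1, from 111 and 33 reads in all. Its Axin1 values were all below its wild-type values, and with no filter its log2 fold change was -0.22 (limma adjusted p = 0.0637).

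In wild type Timp1, Timp2 and Timp3 lay close together, and the order of Timp1 and Timp3 differed between libraries. The ratio of Timp3 to Timp1 was 1.15, 0.951 and 1.09 in wild type and 2.14, 2.08 and 1.74 with Axin1. Timp3 thus made up 34.6% to 38.3% of the summed TIMP level in wild type and 46.8% to 50.9% with Axin1, and the sum itself went from 68.3 to 74.0 RPKM up to 80.3 to 85.1 RPKM. Timp1, Timp3 and Timp4 lie inside the synapsin genes Syn1, Syn3 and Syn2, on the opposite strand. Timp1 and Timp3 share no annotated exon bases with them, and Timp4 shares 90 of its 5894 (1.53%) with Syn2. The deposited Timp4 values imply a transcript of 1426 bases, so whether the shared bases were counted is not known. The library kit does not keep the strand, so reads from a synapsin transcript that still held its intron, and for Timp4 also spliced Syn2 reads, could not be told apart from TIMP reads. Syn3 went from 6.85 ± 0.448 to 5.53 ± 0.129 RPKM (SD, n = 3), and its log2 fold change was -0.26 (limma adjusted p = 0.022). Syn1 (log2 fold change -0.17) and Syn2 (-0.06) did not pass. These values do not show how many reads came from synapsin introns, and the part of such reads in the TIMP results was not tested. The pericyte and smooth muscle markers had a median log2 fold change of -0.25, with 0 higher and 4 lower of 9 tested. Among all tested genes 14.4% were higher and 8.37% lower. The part of pericytes and smooth muscle cells in the Timp3 result was not tested.

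**Figure D3:**
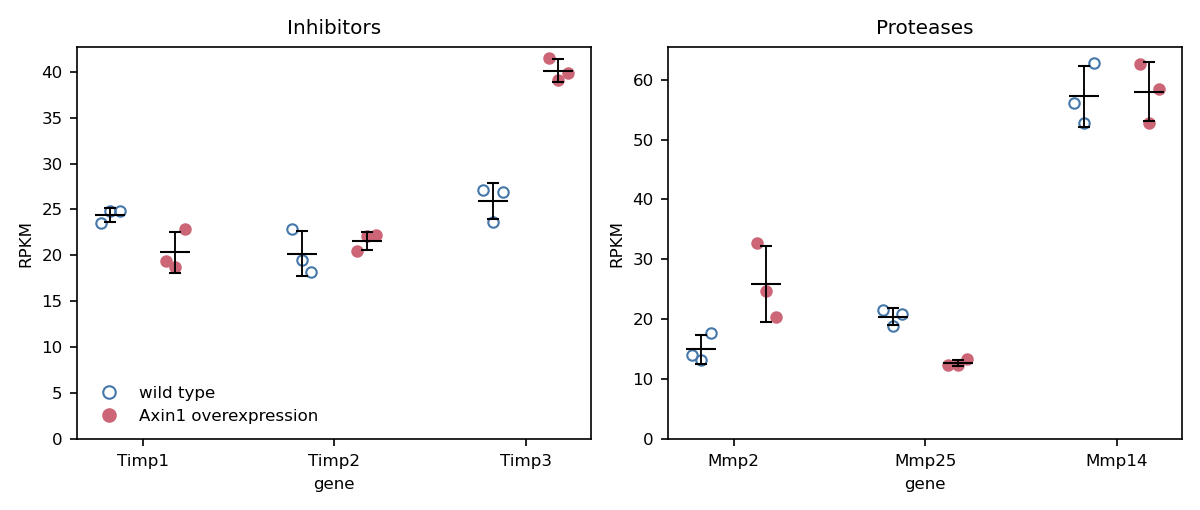
RPKM by library (linear axes from 0) of 3 inhibitors and 3 proteases, with open points for wild type, filled points for Axin1 overexpression, and bars for the mean and SD of 3 libraries. Timp3 and Mmp2 sit higher and Mmp25 lower in all Axin1 libraries, while the points of Timp2 and Mmp14 overlap between the groups.

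Both gelatinases, which digest denatured collagens and collagen IV of basement membranes, changed, and in opposite directions. Mmp2 read 14.1, 13.2 and 17.7 RPKM in wild type and 32.7, 24.6 and 20.3 RPKM with Axin1. The lowest Axin1 library was above the highest wild-type library, but the Axin1 libraries were spread widely. The mean rose 1.73-fold, to 25.9 ± 6.30 RPKM against 15.0 ± 2.40 RPKM (SD, n = 3). On the log2(RPKM + 1) scale the change was 0.73 with an SE of 0.16 (limma adjusted p = 0.0169). The call was lost without Axin1 replicate 2 (log2 fold change 0.76) and with no filter. Mmp9 was far lower in level, at 1.49, 1.05 and 1.46 RPKM in wild type and 0.927, 0.877 and 0.815 RPKM with Axin1. Every Axin1 library was below every wild-type library, from 731 reads in wild type and 262 with Axin1 (log2 fold change -0.31, limma adjusted p = 0.0308; 0.653 times the wild-type RPKM). The Mmp9 call held without wild-type replicate 2 and was lost when any other library was left out, with a pseudocount of 10, with no filter and after correction for GC content and length (log2 fold change -0.28). The meningeal fibroblast markers, from cells known to make Mmp2, had a median log2 fold change of -0.20, with 0 higher and 2 lower of 11. Of the microglia and macrophage markers, from cells known to make Mmp9, 2 of 7 tested were higher and 0 lower. Among all tested genes 14.4% were higher and 8.37% lower. The part of fibroblasts, microglia or macrophages in either result was not tested.

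Of the membrane-type MMPs, which act at the cell surface, 6 of 7 were tested and 1 changed. Mmp25, whose product is held in the membrane by a lipid anchor, read 21.6, 18.9 and 20.8 RPKM in wild type and 12.3, 12.4 and 13.3 RPKM with Axin1. The groups lay far apart and both were tight (0.62 times the wild-type level; log2 fold change -0.65, SE 0.07, limma adjusted p = 0.000817). The order of Mmp2 and Mmp25 turned over: Mmp2 was 0.652, 0.699 and 0.852 times Mmp25 in the wild-type libraries and 2.65, 1.99 and 1.53 times in the Axin1 libraries. Mmp14, the main activator of pro-MMP2 and a collagenase of the cell surface, read 56.1, 52.8 and 62.7 RPKM in wild type and 62.6, 52.8 and 58.5 RPKM with Axin1. Its groups covered the same range, with a log2 fold change of 0.02 (95% interval -0.18 to 0.22). Mmp15, a close relative of Mmp14, read 38.6, 38.3 and 38.0 RPKM in wild type and 46.7, 43.3 and 42.0 RPKM with Axin1. Its groups did not overlap, but it narrowly missed the threshold (log2 fold change 0.19, limma adjusted p = 0.0552), and it passed under 6 of 17 other settings. The log2 fold change of Mmp15 was 0.37 after correction for GC content and length, and it ranged from 0.13 to 0.37 over the settings. Mmp24 read 11.0, 13.7 and 10.004 RPKM in wild type and 9.30, 8.98 and 9.23 RPKM with Axin1, without overlap (log2 fold change -0.30, limma adjusted p = 0.0651). The gene shares 14.8% of its annotated exon bases with BC029722 on the opposite strand. Mmp17 (log2 fold change -0.17) and Mmp16 (-0.09) did not pass.

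Of the secreted MMPs that furin cuts, Mmp28 and Mmp11 were tested and did not pass. Mmp28, known from epithelia and neural tissue, had the highest mean MMP level over the 6 libraries, at 58.8, 61.7 and 63.9 RPKM in wild type and 56.3, 59.4 and 59.3 RPKM with Axin1. Mmp14 was higher than Mmp28 in Axin1 replicate 1, and their Axin1 means were 58.0 and 58.3 RPKM. The groups of Mmp28 overlapped slightly (log2 fold change -0.07, 95% interval -0.21 to 0.07), and 12.3% of its exon bases are shared with 1700020L24Rik on the opposite strand. Mmp11 lay near 4 RPKM, with a log2 fold change of -0.09. Mmp28, Mmp14 and Mmp15 together made up 71.5% to 74.6% of the summed MMP level in the 6 libraries. That sum was 212 to 226 RPKM in wild type and 213 to 232 RPKM with Axin1, and so overlapped between the groups.

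**Figure D4:**
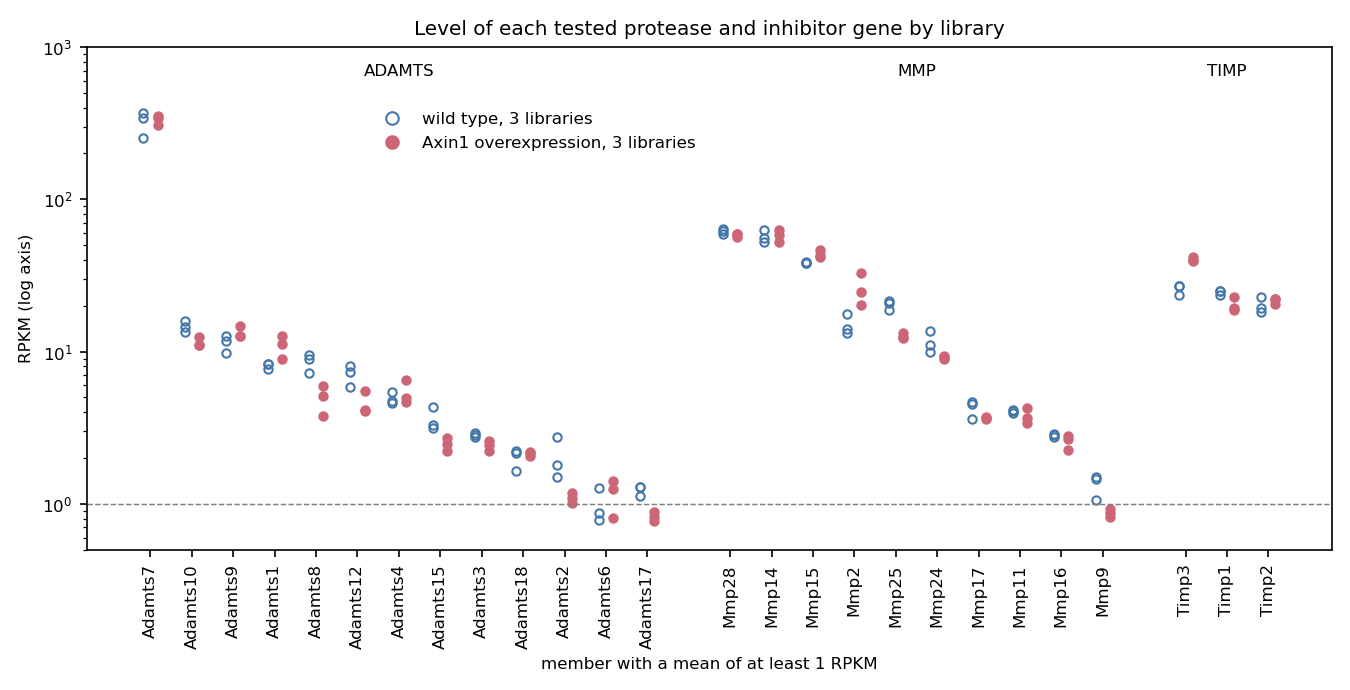
RPKM (log axis) of the 26 members with a mean of at least 1 RPKM (dashed line), ordered by level within each family, with 3 open points for wild-type and 3 filled points for Axin1 libraries. Adamts7 stands above every other member at 251 to 367 RPKM, and the other ADAMTS genes lie under 16 RPKM.

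Among the ADAMTS genes the highest level by far was that of Adamts7, which cleaves cartilage oligomeric matrix protein. It read 341, 367 and 251 RPKM in wild type and 355, 340 and 309 RPKM with Axin1, or 78.3% to 85.7% of the summed ADAMTS level of a library. The groups overlapped, and the lowest value of the 6 was wild-type replicate 3 (log2 fold change 0.08, 95% interval -0.22 to 0.38). The values rest on 34912 to 113165 reads per library, and the transcript length that they imply is 5385 bases, beside 5098 in the reference. That length only gives back the one by which the RPKM values were scaled. It cannot show whether the reads were assigned to the right gene. In the annotation 122 of its exon bases (2.13%) overlap Tbc1d2b on the opposite strand. The table does not show where along the transcript its reads lay. Its partner in substrate, Adamts12, was lower with Axin1, at 7.37, 5.87 and 8.002 RPKM against 5.51, 4.10 and 4.16 RPKM. The highest Axin1 value lay just under the lowest wild-type value (log2 fold change -0.53, SE 0.12, limma adjusted p = 0.0192).

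Of the proteoglycan-cleaving ADAMTS genes, 5 of 7 were tested, of which 1 was higher and 2 were lower. Adamts8, whose product has been described as antiangiogenic, read 9.53, 7.28 and 8.97 RPKM in wild type and 5.11, 3.79 and 5.99 RPKM with Axin1. The groups were separate, with a fall to 0.578 times the wild-type level (log2 fold change -0.70, SE 0.14, limma adjusted p = 0.0122). An antisense gene, Gm29724, covers 13.5% of its exon bases. Adamts15 read 4.30, 3.32 and 3.14 RPKM in wild type and 2.72, 2.22 and 2.46 RPKM with Axin1, again without overlap (log2 fold change -0.40, limma adjusted p = 0.0261). Adamts1, a versican-cleaving enzyme that also binds VEGF, went the other way. It read 8.25, 7.73 and 8.32 RPKM in wild type and 12.6, 8.96 and 11.3 RPKM with Axin1, and all Axin1 values were higher (log2 fold change 0.38, SE 0.11, limma adjusted p = 0.0364). Adamts9, which also cleaves versican and had a level of 11.4 ± 1.46 RPKM in wild type and 13.4 ± 1.25 RPKM with Axin1 (SD, n = 3), did not pass. Its libraries read 9.77, 12.6 and 11.8 RPKM in wild type and 14.8, 12.7 and 12.6 RPKM with Axin1, with a log2 fold change of 0.21. Adamts4, a cartilage aggrecanase, did not pass either (log2 fold change 0.09, 95% interval -0.16 to 0.34).

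The procollagen-trimming and less studied ADAMTS genes that changed were all lower. Adamts2, which removes the N-terminal propeptide of fibrillar collagens, read 2.74, 1.49 and 1.79 RPKM in wild type and 1.17, 1.01 and 1.09 RPKM with Axin1. Wild-type replicate 1 stood above the other wild-type libraries, and the Axin1 libraries lay close together below all of them (0.544 times the wild-type RPKM, log2 fold change -0.50, limma adjusted p = 0.0297). Without wild-type replicate 1 the log2 fold change of Adamts2 was -0.33, and it still passed, while it did not pass when any 1 of the Axin1 libraries was left out. Its relative Adamts3, which acts on the lymphatic growth factor VEGF-C, had no overlap between the groups but did not pass (log2 fold change -0.17, limma adjusted p = 0.092). Adamts10, which binds fibrillin microfibrils, read 14.455, 15.8 and 13.5 RPKM in wild type and 12.496, 11.0 and 11.1 RPKM with Axin1, and its groups were separate (log2 fold change -0.32, limma adjusted p = 0.023). Adamts17, a close relative of Adamts19, read 1.13, 1.298 and 1.29 RPKM in wild type and 0.884, 0.775 and 0.825 RPKM with Axin1. No library overlapped, and the Axin1 level was 0.669 times that of wild type (log2 fold change -0.29, limma adjusted p = 0.014). Adamts6 (log2 fold change 0.12) and Adamts18 (0.07) did not pass. Adamts6 covered 0.782 to 1.27 RPKM in wild type and 0.809 to 1.41 RPKM with Axin1, so its groups overlapped widely.

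The calls differed in how firmly they stood. Adamts8, Mmp25 and Timp3 passed under all 17 other settings run, among them leaving out each library. The calls of Adamts2, Adamts10, Adamts12, Adamts15, Adamts17 and Mmp9 were lost after each library was corrected for the GC content and length of transcripts, which left 2 ADAMTS genes changed (Adamts1 and Adamts8). Under that correction the log2 fold change of Adamts12 was -0.47 (limma adjusted p = 0.0517, against -0.53 as reported) and that of Mmp9 was -0.28 (0.0605, against -0.31). Those of the other 4 moved closer to 0, to -0.35 for Adamts2, -0.20 for Adamts10, -0.26 for Adamts15 and -0.16 for Adamts17. The correction used the longest matching reference transcript, which can differ from the one counted. Adamts2 has 7266 bases there and an implied 3768, and Adamts12 has 8579 and an implied 6279. The median GC content was 54.6% for the 8 lower members, 49.7% for the 3 higher, 55.2% for the 15 that did not pass and 50.5% for all tested genes. Adamts1 passed under 8 of 17 other settings and was lost under both rescalings of the libraries (log2 fold changes 0.34 and 0.33) and when any library other than Axin1 replicate 2 was left out. Leaving out Axin1 replicate 2 ended the calls of Adamts10, Adamts12, Adamts15 and Adamts17. Leaving out Axin1 replicate 3 or wild-type replicate 1 ended those of Adamts10, Adamts12 and Adamts15. Adamts10 was also lost without wild-type replicate 2, and Adamts12 without wild-type replicate 3. All 11 kept their direction under every setting in which they were tested. Without Axin1 replicate 2, 2 ADAMTS and 1 MMP gene were called, and without Axin1 replicate 3, 2 ADAMTS genes. Without wild-type replicate 1, 3 ADAMTS genes were called.

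**Figure D5:**
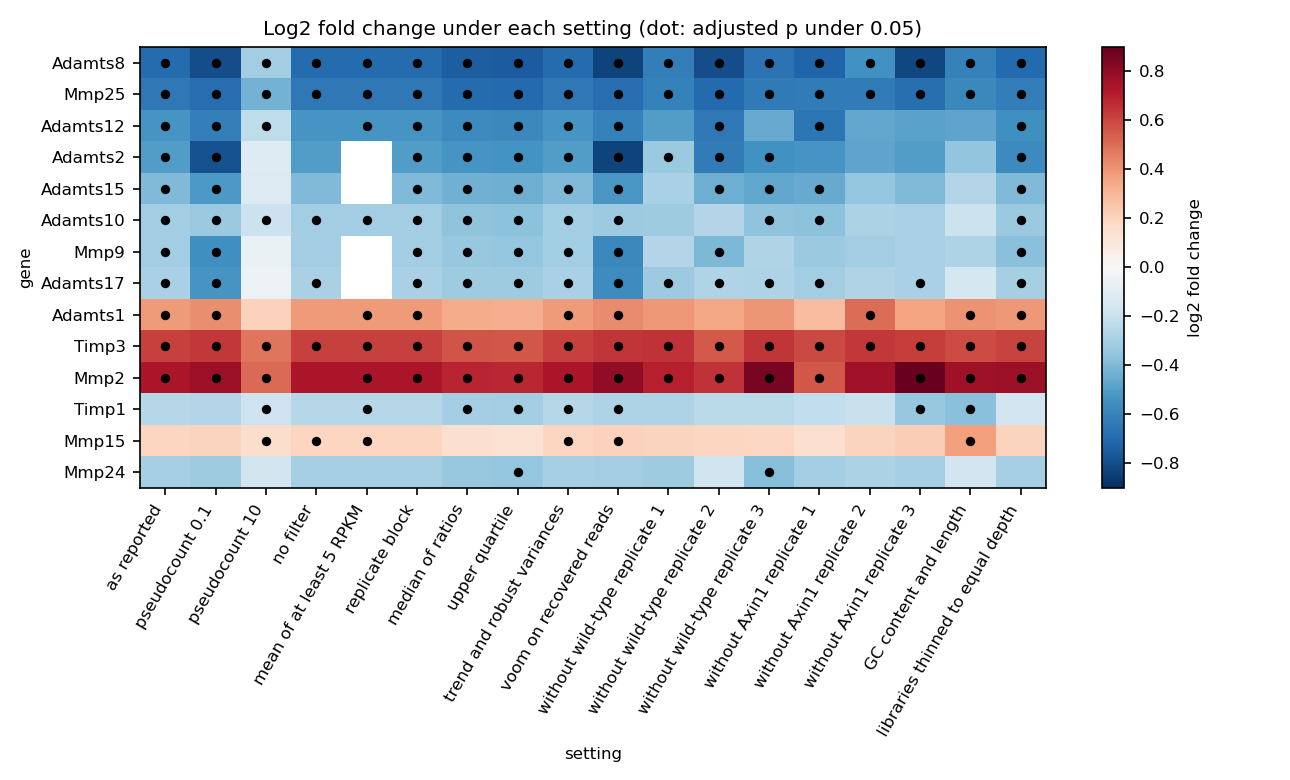
Log2 fold change (colour) of the 11 called members and of Timp1, Mmp15 and Mmp24 under the reported fit and 17 other settings, with a dot where the adjusted p was under 0.05 and white where a gene was not tested. The rows of Adamts8, Mmp25 and Timp3 carry a dot in every column, and the GC content and length column has a dot for 7 of the 14 genes.

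In the authors' deposited table, 9 of 39 members with an adjusted p were under 0.05, where 8.88% of all genes with a value were. Of these, 8 were also called by limma here. The ninth was Timp1, with a wild-type to Axin1 fold of 1.24 and an adjusted p of 0.0411 in the authors' deposited table. Adamts1, Adamts2 and Mmp2 were called here but not in the authors' deposited table, where their adjusted p was 0.223, 0.113 and 0.0831. The lowest values of the authors' deposited table among the members were those of Mmp25 (5.92e-11) and Timp3 (1.29e-07).

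Of 39 activators, inhibitors, ADAM sheddases and substrates listed, 36 were tested, of which 1 was higher and 12 were lower, with a median log2 fold change of -0.21. Of all tested genes 14.4% were higher and 8.37% lower, and the counts by role stand against the same shares. Bsg (basigin), a membrane protein known for inducing MMPs and abundant in brain endothelium, had 844 ± 44.4 RPKM in wild type and 427 ± 32.1 RPKM under Axin1 (SD, n = 3), a log2 fold change of -0.98 (limma adjusted p = 0.00017). Furin, the protease that removes the propeptide of membrane-type MMPs and of ADAMTS enzymes, read 38.2, 44.1 and 39.0 RPKM in wild type and 26.5, 25.0 and 25.2 RPKM with Axin1. Those groups lay far apart (log2 fold change -0.64, limma adjusted p = 0.001). Plau, the urokinase that starts plasmin-driven activation of MMPs, was the 1 gene that rose, with 1.99 ± 0.287 RPKM in wild type and 5.41 ± 1.55 RPKM under Axin1 (SD, n = 3). Its log2 fold change was 1.08 (limma adjusted p = 0.00307), and 1.37 with a pseudocount of 0.1. The count of 13 became 6 without Axin1 replicate 2, 8 without Axin1 replicate 3 and 8 without wild-type replicate 1.

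Of the other inhibitors and clearance genes, 5 of 6 were lower and 0 higher. Papln, counted among the lower, reached the filter of 1 RPKM only through wild type (mean 1.54 RPKM, against 0.94 with Axin1). A2m, a plasma inhibitor that traps proteases, had 2.62 ± 0.371 RPKM in wild type and 1.44 ± 0.0941 RPKM under Axin1 (SD, n = 3). Its log2 fold change was -0.56 (limma adjusted p = 0.0036), and -0.81 with a pseudocount of 0.1. Reck, a membrane-anchored MMP inhibitor that is also part of the Wnt7 receptor complex, stood at 9.26 ± 0.419 RPKM (SD, n = 3) in wild type and 7.25 ± 1.09 RPKM with Axin1 (log2 fold change -0.32, limma adjusted p = 0.0428), a call that was lost under 10 of 17 other settings. Of the substrates, 3 of 16 were lower and 0 higher. Fn1 (fibronectin) had a log2 fold change of -0.75 (limma adjusted p = 0.0139), which did not pass without Axin1 replicate 2 (-0.63), with no filter (-0.75) or after correction for GC content and length (-0.60). Vcan, the versican gene, did not pass (log2 fold change 0.14, limma adjusted p = 0.246). Of the ADAM sheddases 1 of 6 was lower and 0 were higher. Adam19 (log2 fold change 0.22) and Adam12 (0.21) did not pass.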

How the data were processed

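Bowtie, DESeq and the genome build mm9 are named in the submitters' processing notes, without versions or roles. The authors deposited RPKM values per gene and library, together with group means of normalized count signal, a fold (wild type over Axin1) and p-values with their adjusted values, per the file headers. No header names the RPKM unit, which was settled from the transcript lengths the values imply (median 0.985 of the reference over 9342 genes). Read numbers were worked out from the RPKM values and the deposited group means, and 99.99% of values of genes with 1 transcript (84.6% of all values) came out whole within 0.05 reads. At 1 kb of transcript, 3 reads were worth 0.0487 to 0.143 RPKM. No 2 libraries of a group agreed within sampling noise, with a chi-square per gene of at least 7.60.

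Limma 3.58.1 in R 4.3.3 was fitted to log2(RPKM + 1) of the 12493 genes whose mean reached 1 RPKM, with group as the only factor, two-sided, and Benjamini-Hochberg adjustment over all of them. The fit was also run on simulated reads with the same spread for every gene and no batch difference. That run cannot show how the fit performs on libraries like these. Python 3.11.15 read the table. Members were taken by symbol, and the families, lists and tests were chosen with earlier results of these data known. Members with at least 1 RPKM were all named. Given library by library were the TIMP genes, the called members, the 4 highest ADAMTS and MMP genes, and, chosen after their values were seen, Mmp24. Of the other genes those named were the 3 with the lowest p in each direction and Reck, Furin, Vcan and Fn1. Papln was named as well, chosen after its values were seen. Overlapping genes come from GENCODE M21 on GRCm38, so no coordinates of the deposited genes are given. Shares of exon bases are of the annotated exons, which can differ from the transcripts counted in the deposited values.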

Additional observations from a re-analysis of the deposited data

How the results depend on the processing

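All values below are counts of genes with a limma adjusted p under 0.05 unless stated. The 7 changed ADAMTS genes became 3 with a pseudocount of 10, 3 with no filter, 4 with a mean of at least 5 RPKM, 2 after correction for GC content and length, and 2 to 5 when a library was left out. The 3 changed MMP genes became 1 to 4 when a library was left out. The 1 changed TIMP gene became 2 with a pseudocount of 10, with a mean of at least 5 RPKM, under both rescalings, with trend and robust variances, with voom, and after the GC correction, and 1 to 2 without a library. The 13 pathway genes became 7 with no filter and 6 to 16 without a library. All 2846 changed genes became 1835 after the GC correction and 1054 to 2318 without a library, lowest without Axin1 replicate 2 and next (1402) without Axin1 replicate 3. The causes were not tested, except that the filters alter how many genes are tested. Rescaling by the median of ratios turned 1800 higher and 1046 lower genes into 1248 and 1392, and by the upper quartile into 1117 and 1466.

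Direction changed for 5 members that did not pass: Mmp14 (log2 fold change -0.0307 with the median of ratios, -0.0394 with the upper quartile, -0.0375 to 0.0864 without a library), Mmp28 (0.0123 after the GC correction), Adamts7 (-0.0824 to 0.1896), Adamts4 (-0.0332 to 0.1703) and Adamts18 (-0.0176 to 0.1259), the last 3 when a library was left out. With the replicate number as a block (replicate block), 7 ADAMTS, 3 MMP, 1 TIMP, 16 pathway and 2675 of all genes changed. The deviations of same-numbered libraries correlated at 0.0785, 0.127 and 0.0593, and each library correlated best with its own number. Deviations within a group are tied together by its mean, so these low values do not show pairing. The labels do not pair the libraries, and pairing was not tested. The GC correction and the thinning of libraries to equal depth were added after seeing the data. Members at a few reads cannot be compared at this depth.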
